A study of Mus musculus with 6 samples.

Results

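The anterior prostate (AP) of a MYC mouse was compared with the AP of a wild-type (WT) littermate by bulk RNA-seq. The comparison takes 2 of the 6 libraries of the series, 1 for each genotype, and 12361 of the 24908 genes listed, those averaging 1 FPKM or more across all 6 libraries. FPKM counts fragments relative to transcript length and to the reads mapped in the library. MYC and WT were set against each other as the log2 ratio of FPKM + 1, and a gene was called higher or lower in MYC at a difference of at least 2-fold on this scale.

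Both mice were males of the FVB strain, 12 weeks old, kept on a purified diet. The MYC mouse was a Hi-MYC animal, heterozygous for a human c-MYC transgene that the ARR2Pb promoter, an androgen-responsive probasin promoter, drives in prostatic epithelium. The WT mouse carried no transgene. Each AP was dissociated to a cell suspension before RNA extraction, and each mouse gave its dorsolateral (DLP) and ventral (VP) lobes too. With 1 mouse for each genotype, genotype and animal cannot be told apart, no difference has a replicate check and no p-value was computed.

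The AP, also called the coagulating gland, lies against the seminal vesicle and is dissected together with it. Its secretory luminal cells rest on basal cells, which carry keratins 5 and 14, and each gland is wrapped in fibroblasts and smooth muscle. Luminal cells secrete proteins of the seminal fluid under the control of androgen, whereas the seminal vesicle secretes another set of androgen-dependent proteins that form the copulatory plug. MYC is a transcription factor best known for promoting growth, ribosome production and cell division.

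The WT AP library held about 25.5 M reads and the MYC AP library 50.03 M, estimated from the steps of low FPKM values, of which 51.3% and 47.1% came within 0.03 of a whole read, so that estimated reads are approximate and low genes of WT AP are the least precise. A listed value of 0 need not be an absence of transcripts, since an estimate can fail, and it is not read as one. Tgm4, the transglutaminase of the coagulating gland, had 3016 FPKM in WT AP and 2545 FPKM in MYC AP against 0.400 and 0.446 FPKM in WT and MYC VP. It had 1804 and 92.5 FPKM in WT and MYC DLP, so it sets the AP libraries apart from VP and less so from WT DLP. The gene listed as Myc does not separate the AP libraries, with 230.0 FPKM in WT and 230.9 FPKM in MYC (95% counting interval of the ratio 0.979 to 1.03). Human and mouse reads are not separated in the table. Counting intervals at 95%, given in parentheses for some genes as exact binomial (Clopper-Pearson) limits on estimated reads, cover counting error only and not the difference between animals.

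In MYC AP, 254 genes (2.05% of those compared) were at least 2-fold higher than in WT AP and 74 (0.599%) at least 2-fold lower. Genes of seminal vesicle secretion, a small set of secretory and defence genes, fibrillar collagens and some mitotic and interferon-stimulated genes were among those higher. Genes of the cornified envelope, stress keratins, wound-edge genes and parts of the unfolded protein and amino acid stress responses were among those lower. General luminal, endothelial and macrophage markers stayed under the 2-fold threshold. The median log2 ratio over all genes compared was 0.13, and 66.4% of them had a ratio above 0 (53.5% in DLP and 53.2% in VP). Scaling by median-of-ratios size factors moved that median to -0.00146 and gave 200 genes higher and 134 lower, so that the share of calls that were higher went from 77.4% to 59.9%. Counts of list members above or below 0 are given without that shift, so a ratio within 0.13 of 0 can change its sign with the scaling. Of the 254 genes, 24 are microRNA or small nucleolar RNA genes and 12 are unnamed gene models, and 37 are listed at 0 in WT AP. Of the 74 genes, 12 are small RNA genes, 3 unnamed models and 11 listed at 0 in MYC AP.

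**Figure D1:**
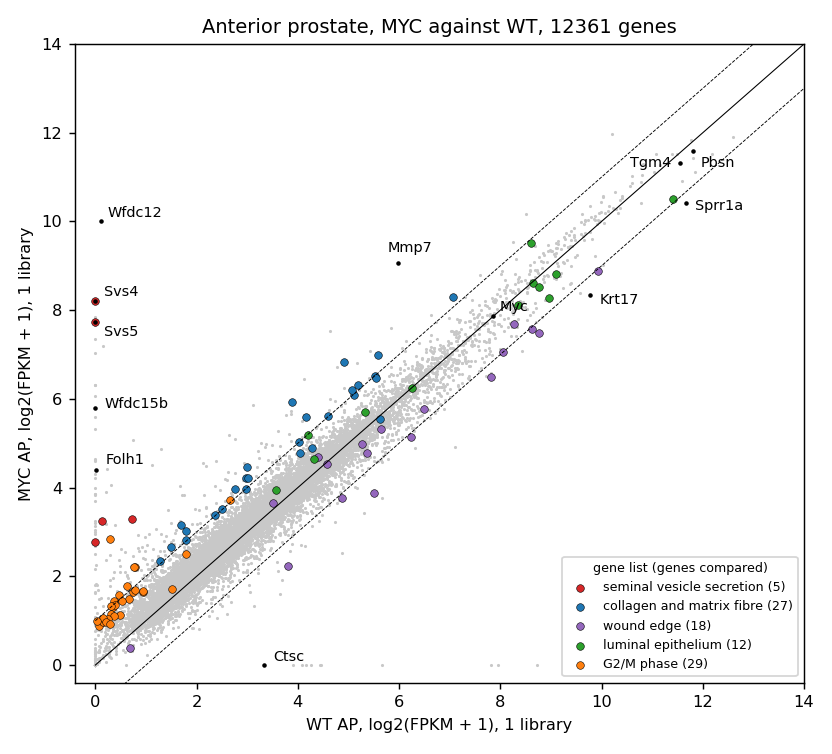
Each point is 1 of the 12361 genes compared, with log2(FPKM + 1) of the WT AP library on the x axis and of the MYC AP library on the y axis, 1 library each. The solid line marks equal values and the dashed lines 2-fold differences; the 5 seminal vesicle genes lie far above the upper line, Myc lies on the diagonal, and most wound-edge genes lie below it.

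Genes of seminal vesicle secretion were among those with the largest differences between the AP libraries. Svs4, which encodes a basic protein of mouse seminal vesicle fluid, is listed at 0 in WT AP and had 293 FPKM in MYC AP, and its neighbour Svs5 is listed at 0 and had 212 FPKM. Both are listed at 0 in the WT DLP, WT VP and MYC VP, and they had 4.68 and 2.62 FPKM in MYC DLP. Of a list of 13 seminal vesicle genes, 11 are in the table, 5 were compared and all 5 were at least 2-fold higher, against 2.05% of all genes. Their median log2 ratio was 3.12 against 0.13 over all genes. Of these, Svs4, Svs5, Pate4 and Spinkl averaged 1 FPKM only through the MYC AP library, so that their direction follows from the filter, while Ceacam10 passed it through the other libraries too. With no filter the median over the list was 2.57. The remaining 6 averaged under 1 FPKM. Summed over the 11 genes, the level was 0.762 FPKM in WT AP and 539 FPKM in MYC AP, against 14.4 FPKM in MYC DLP and 3.22 FPKM in MYC VP.

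The genes of the list were unequal in level. Pate4, a secreted protein of the seminal vesicle, had 0.0966 FPKM in WT AP and 8.55 FPKM in MYC AP. Ceacam10 had 0.650 and 8.79 FPKM, and Spinkl, a trypsin inhibitor-like gene, is listed at 0 in WT and had 5.88 FPKM in MYC. Svs2, which encodes a main protein of the copulatory plug, is listed at 0 in WT AP and had 5.06 FPKM in MYC AP. Svs6 had 2.33, Svs3b 1.94, Svs3a 1.39 and Svs1 0.240 FPKM in MYC AP, and Sva is listed at 0 in both AP libraries. Thus Svs4 and Svs5 stood well above every other member, Svs2 included.

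Markers of neighbouring organs were read beside these values. Of transcription factors of the Wolffian duct, from which the seminal vesicle develops, Pax2 had 0.00706 FPKM, Pax8 0.0169 FPKM and Emx2 0.258 FPKM in MYC AP, while Lhx1 is listed at 0. In WT AP Pax8 had 0.0331 and Emx2 0.147 FPKM, so none of these reached 1 FPKM in either AP library. Of 10 vas deferens and epididymis genes, 8 are listed at 0 in MYC AP, and the list summed to 2.79 FPKM in WT AP and 4.98 FPKM in MYC AP, nearly all of it Adam28. Whether seminal vesicle tissue was carried into the MYC AP suspension was not tested, and in bulk RNA a change in the number of cells of a type and a change in RNA per cell cannot be told apart.

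Svs4 and Svs5 belong to a run of WFDC and SVS genes on chromosome 2, a cluster of small secreted protease inhibitors and seminal vesicle proteins that share a common gene structure. Between Wfdc5 and Wfdc3 (chr2:164176325-164745994 in GRCm38.p6), 34 genes are in the table, 11 were compared and 6 were at least 2-fold higher in MYC AP, with none lower. Over all genes compared 2.05% were higher. The run was chosen with earlier results of these data known, and Svs4 and Svs5 passed the filter only through MYC AP. The count is thus no independent support. The largest positive difference of all genes compared was that of Wfdc12, a WAP four-disulfide core protease inhibitor, which had 0.0755 FPKM in WT AP and 1028 FPKM in MYC AP, an estimated 1 read against 29583. Wfdc15b is listed at 0 in WT AP and had 54.3 FPKM in MYC AP. Wfdc3 is listed at 0 and had 1.46 FPKM, and Wfdc2, an epithelial protease inhibitor gene, had 13.7 and 49.6 FPKM (ratio 3.63, 95% counting interval 2.97 to 4.44). Slpi, a protease inhibitor gene of the same kind, had 0.993 and 0.536 FPKM, and the interspersed non-WFDC genes Sdc4, a syndecan, and Pigt, of GPI anchor synthesis, had 303 and 238 FPKM and 24.0 and 31.1 FPKM. The higher values therefore covered some WFDC and SVS genes and not these neighbours.

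Within the cluster the MYC libraries fell into different patterns. Wfdc12 had 1657 FPKM in MYC DLP and 62.7 FPKM in MYC VP, with 0.163 and 0.155 FPKM in the matching WT lobes. Wfdc15b had 1.15 and 73.6 FPKM in WT and MYC DLP and 0.0548 and 1.26 FPKM in WT and MYC VP. Both were thus higher in MYC DLP than in MYC AP, by 1.61 and 1.36 times. In contrast, Svs4 was 62.5 times, Svs5 80.8 times and Svs2 10.4 times higher in MYC AP than in MYC DLP, while Svs3a (1.24 times) and Svs3b (0.913 times) were nearly level.

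**Figure D2:**
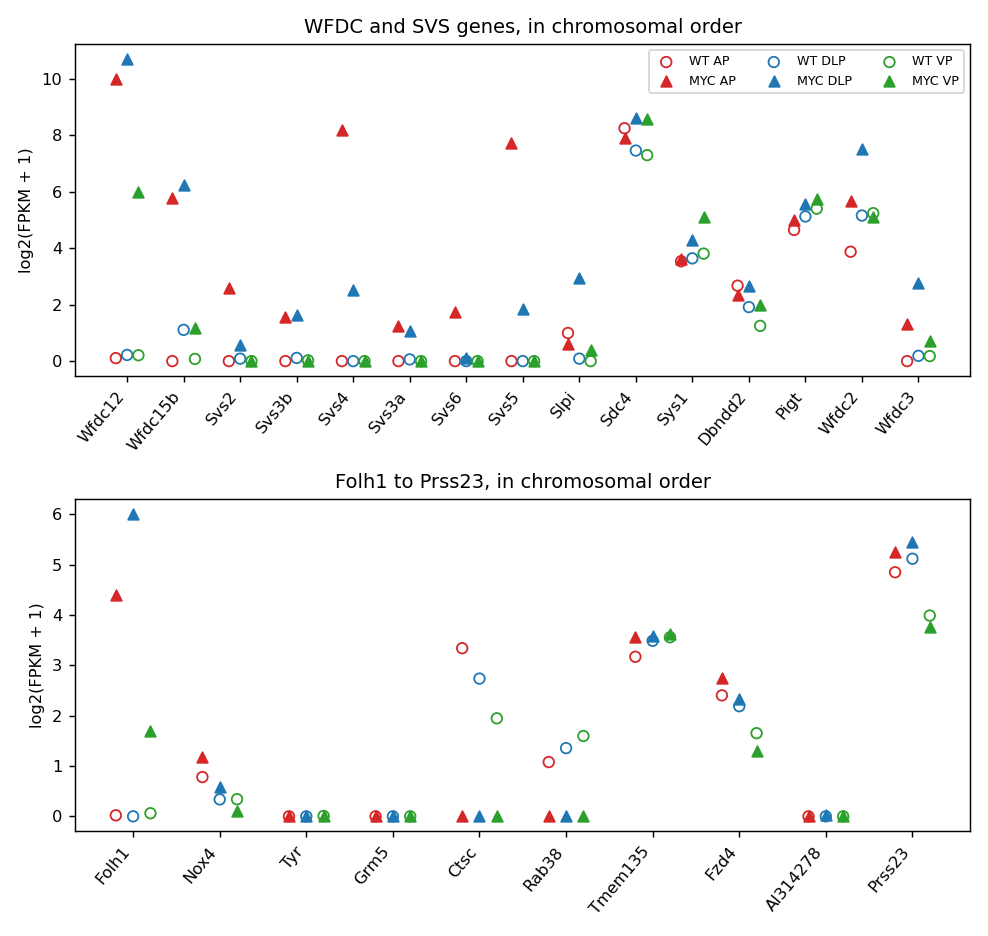
The y axis gives log2(FPKM + 1) in each of the 6 libraries (open circles, WT; filled triangles, MYC; red AP, blue DLP, green VP) for genes in chromosomal order, the upper panel for the WFDC and SVS genes with at least 1 FPKM in a library and the lower panel for the genes from Folh1 to Prss23, olfactory-type receptor genes left out. In the upper panel Svs4 and Svs5 are high in MYC AP, and Wfdc12 and Wfdc15b in both MYC AP and MYC DLP; in the lower panel Ctsc and Rab38 are near 0 in all 3 MYC libraries.

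The promoters of the genes with the largest differences in the cluster are shown to let their sequences be compared, with that of Pbsn (probasin), the prostate secretory gene whose AP level differed little, set beside them. Each run is the 250 bases before the RefSeq start, from the GRCm38.p6 promoter table, written 5′ to 3′ on the strand of the gene. Capitals mark TATAAA, the core of the TATA box, and AGAACA, a half-site of the androgen response element, on either strand (TTTATA and TGTTCT on the other strand); the motifs do not overlap each other.
Wfdc12 (chr2:164190559-164190808, minus strand): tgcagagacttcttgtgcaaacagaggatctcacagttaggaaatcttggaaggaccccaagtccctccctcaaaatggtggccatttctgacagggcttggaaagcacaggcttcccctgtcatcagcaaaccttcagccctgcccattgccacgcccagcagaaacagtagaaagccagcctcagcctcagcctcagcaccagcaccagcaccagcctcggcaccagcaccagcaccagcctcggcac
Wfdc15b (chr2:164221664-164221913, minus strand): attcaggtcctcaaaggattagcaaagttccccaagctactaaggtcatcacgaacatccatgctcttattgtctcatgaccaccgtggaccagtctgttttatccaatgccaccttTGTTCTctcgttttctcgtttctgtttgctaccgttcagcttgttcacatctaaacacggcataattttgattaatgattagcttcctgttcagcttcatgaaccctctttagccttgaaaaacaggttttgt
Svs4 (chr2:164278308-164278557, minus strand): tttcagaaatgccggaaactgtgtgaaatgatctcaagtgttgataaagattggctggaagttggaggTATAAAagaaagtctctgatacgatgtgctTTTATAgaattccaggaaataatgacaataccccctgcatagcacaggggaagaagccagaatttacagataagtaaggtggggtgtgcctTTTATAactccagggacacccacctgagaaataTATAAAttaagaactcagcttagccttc
Svs5 (chr2:164332515-164332764, plus strand): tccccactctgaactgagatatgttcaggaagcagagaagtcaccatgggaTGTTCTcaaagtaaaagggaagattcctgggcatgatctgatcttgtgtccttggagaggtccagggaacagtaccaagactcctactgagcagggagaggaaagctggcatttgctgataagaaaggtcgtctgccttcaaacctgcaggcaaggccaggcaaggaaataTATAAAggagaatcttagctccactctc
Pbsn (chrX:77853501-77853750, minus strand): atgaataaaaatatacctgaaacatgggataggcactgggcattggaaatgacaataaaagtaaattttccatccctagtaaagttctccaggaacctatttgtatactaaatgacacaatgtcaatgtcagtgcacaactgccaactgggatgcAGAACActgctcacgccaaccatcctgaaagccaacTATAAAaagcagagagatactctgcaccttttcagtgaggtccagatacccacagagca

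Svs4 and Svs5 both hold a TATAAA that spans bases 28 to 23 before the start, and Svs4 holds 4 in all. Pbsn holds 1 at bases 59 to 54. TATAAA occurs on either strand in 12.4% of 32851 promoters of the same length. AGAACA is present once in Wfdc15b, once in Svs5 and once in Pbsn, and in 16.1% of all promoters. Wfdc12 holds neither and is built in its proximal part of repeated cagcac and cagcct units. The E-box CACGTG, the letters bound by MYC with its partner MAX, is in none of the 5 and in 6.02% of all promoters. These matches describe letters and not binding.

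Other secreted-protein genes were higher in MYC AP as well. A second cluster of small secreted proteins, the PATE genes of chromosome 9 (chr9:35607093-36638602), holds 17 genes in the table, of which 4 were compared and 3 were at least 2-fold higher. D730048I06Rik, which RefSeq names Pate6, is listed at 0 in WT AP and had 65.7 FPKM in MYC AP, beside 75.4 FPKM in MYC DLP. A630095E13Rik (Pate14) had 24.0 FPKM in WT AP and 185 FPKM in MYC AP, 7.72 times higher, and went the other way in DLP, from 392 to 102 FPKM. Gm5615 (Pate9) had 150 and 110 FPKM. These genes were picked after their values were seen. Moxd2, a monooxygenase gene, is listed at 0 in WT AP and had 23.6 FPKM in MYC AP, 6.74 times its 3.51 FPKM in MYC DLP, and it is listed at 0 in both VP libraries.

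Among the largest differences were genes of the luminal surface and of epithelial defence. Folh1, the gene of prostate-specific membrane antigen (PSMA), was at 0.0143 FPKM in WT AP and 20.1 FPKM in MYC AP. Dmbt1, a secreted scavenger receptor of mucosal surfaces, is listed at 0 and had 17.7 FPKM. Mmp7, the epithelial metalloproteinase matrilysin, had 62.1 and 535 FPKM (8.61 times, 8.15 to 9.09). Hamp, the iron hormone hepcidin, had 7.66 and 57.1 FPKM (7.46 times, 5.42 to 10.9). Of these, MYC DLP had still higher values for Folh1 (63.1 FPKM), Dmbt1 (54.2 FPKM) and Mmp7 (651 FPKM), whereas Hamp was highest in MYC AP. The gasdermin genes Gsdmc2, Gsdmc3 and Gsdmc4, which lie side by side on chromosome 15, had 5.77, 4.19 and 0.788 FPKM in WT AP and 33.2, 23.3 and 5.24 FPKM in MYC AP. All 3 were lower in MYC VP than in WT VP, with 9.78 and 3.46 FPKM for Gsdmc2. They are near-identical copies, so the split of reads among them is uncertain. Small RNA genes and unnamed models left out, Ang2, Fam25c, Rnase2a, Sbp and Sprr2a3 were also among the 15 largest positive differences of genes averaging 5 FPKM or more in the AP pair.

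Of 15 epithelial defence genes, 9 were compared and 4 were higher, none lower, with a median of 0.47. Over all genes compared 2.05% were higher and 0.599% lower. Beside Dmbt1 the 4 were Ltf, lactoferrin (0.0308 and 2.22 FPKM), Pigr, the polymeric immunoglobulin receptor (2.17 and 8.51 FPKM), and Cxcl17 (0.353 and 2.16 FPKM). The most abundant members stayed under 2-fold: Cxcl1, a neutrophil chemokine, had 143 FPKM in WT AP and 147 FPKM in MYC AP, and Lcn2, the iron-binding lipocalin of inflamed epithelium, had 166 and 86.4 FPKM.

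Prostate secretory genes differed among themselves in the AP. The most abundant were at similar levels in both genotypes: Pbsn had 3597 FPKM in WT AP and 3084 FPKM in MYC AP, and Tgm4, given above, was 1.19 times lower in MYC. Of the 12 genes compared, 8 were at least 2-fold higher in MYC AP and none was lower, with a median log2 ratio of 1.59. Over all genes compared 2.05% were higher and 0.599% lower. Defb50, a beta-defensin, had 361 and 1147 FPKM (3.18 times, 3.01 to 3.35), Msmb, microseminoprotein, 16.4 and 48.7 FPKM, and Apof 2.29 and 13.2 FPKM. Sbp, the spermine-binding protein, had 0.680 and 32.6 FPKM and its near-copy Sbpl 0.234 and 6.42 FPKM, the split of reads between them being uncertain. Spink1, a trypsin inhibitor gene, is listed at 0 in WT AP and had 7.04 FPKM in MYC AP. Each of these genes has its highest value outside the AP: Defb50 in WT DLP (18600 FPKM), Msmb in WT DLP (8601 FPKM), Spink1 in WT VP (25232 FPKM) and Sbpl in MYC VP (20155 FPKM). Whether tissue of another lobe contributed to the MYC AP library was not tested.

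In the other lobes the same 12 genes had medians of -1.65 in DLP and -1.29 in VP but went both ways, with 5 at least 2-fold higher and 7 lower in DLP and 2 higher and 7 lower in VP. Over all genes compared 6.46% were higher and 3.39% lower in DLP, and 6.88% higher and 5.95% lower in VP. Pbsn had 14037 and 267 FPKM in WT and MYC DLP and 2055 and 1.90 FPKM in WT and MYC VP. The difference between lobes was not tested, and the 3 comparisons come from the same pair of mice.

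Regulators of luminal identity were close in both genotypes. Hoxb13, the posterior homeobox gene of the prostate, had 44.4 and 37.9 FPKM, and Foxa1, a pioneer transcription factor, 165 and 106 FPKM. Of the 13 genes of this list compared, 1 was past 2-fold, Fkbp5, where 2.05% of all genes were higher and 0.599% lower. The list median was -0.05. Fkbp5, a co-chaperone induced by androgen and glucocorticoid, had 11.1 and 38.0 FPKM (3.42 times, 3.13 to 3.74), and 43.8 and 32.2 FPKM in WT and MYC DLP.

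A list of 16 genes induced by glucocorticoid or androgen, written after Fkbp5 was seen, had 15 members compared, 6 of them higher in MYC AP and none lower (median 0.79). Fkbp5 itself is 1 of the 6. Over all genes compared 2.05% were higher and 0.599% lower. Tsc22d3, the glucocorticoid-induced leucine zipper, had 12.6 and 48.9 FPKM (3.87 times, 3.52 to 4.28), Zbtb16, a zinc finger repressor, 11.4 and 25.3 FPKM, and Txnip, an inhibitor of thioredoxin, 69.6 and 158 FPKM. Ppp1r3c, a glycogen-targeting subunit, had 0.396 and 3.28 FPKM and Sesn1 3.92 and 9.06 FPKM. Of the 15, 10 were above 0 and 5 below, the lowest being Cebpd with 223 and 134 FPKM. Dusp1, Klf9 and Sgk1, classic members of the same list, had log2 ratios of 0.20, -0.08 and 0.34, so the list did not differ as 1 block.

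General luminal epithelial markers were near equal. Krt8 had 400 FPKM in WT AP and 388 FPKM in MYC AP, Krt18 had 549 and 448 FPKM, and the adhesion molecule Epcam 325 and 278 FPKM. None of 12 luminal genes was past 2-fold in either direction, against backgrounds of 2.05% and 0.599%, and the median was -0.02. Cldn4, a tight junction claudin and the most abundant of the list, had 2730 and 1458 FPKM, and Krt19 went the other way with 391 and 728 FPKM.

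Genes of proximal luminal cells, the progenitor-like cells near the urethra, were higher in MYC AP for 6 of 10 members, with a median of 1.28 and none lower by 2-fold, although 2 were below 0. In DLP 5 of the 10 were higher as well (median 0.92). Of all genes, 2.05% were higher in AP and 6.46% in DLP. Psca, prostate stem cell antigen, had 97.6 FPKM in WT AP and 238 FPKM in MYC AP (2.43 times, 2.31 to 2.57). Clu, clusterin, had 304 and 741 FPKM, Krt4 10.2 and 30.1 FPKM, Ppp1r1b 13.1 and 35.9 FPKM and Cldn10 8.13 and 21.2 FPKM, beside Wfdc2. Ly6a, stem cell antigen 1, had 172 and 298 FPKM, short of 2-fold. Krt4 and Cldn10 were lower in MYC VP than in WT VP, from 53.3 to 7.09 FPKM and from 60.4 to 10.3 FPKM. Of 8 urothelial genes, a list written after values were seen, 5 were compared and 3 were higher, namely Upk1a (9.27 and 29.1 FPKM), Upk2 (0.762 and 3.41 FPKM) and Psca. Upk3a, an uroplakin of the umbrella cells, is listed at 0 in WT AP and had 1.60 FPKM in MYC AP.

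Basal markers split. Krt5 was the same in both libraries, at 109 FPKM, whereas Krt14 had 760 FPKM in WT AP and 333 FPKM in MYC AP (2.28 times lower, 2.24 to 2.33) and Krt17 875 and 322 FPKM (2.72 times lower, 2.67 to 2.76). Aqp3, a water and glycerol channel, had 25.6 and 8.34 FPKM. Trp63, the basal transcription factor p63, went the other way with 5.79 and 19.2 FPKM (3.32 times higher, 3.02 to 3.65). Of the 10 genes, 3 were lower and 1 higher, against 0.599% and 2.05% of all genes, with a median of -0.27. In MYC DLP Aqp3 was instead higher than in WT DLP, at 41.0 against 7.59 FPKM.

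The genes lower in MYC AP included genes of squamous and wound-type epithelium. Sprr1a, a small proline-rich protein of the cornified envelope, had 3249 FPKM in WT AP and 1367 FPKM in MYC AP (2.38 times lower, 2.35 to 2.41). Ivl, involucrin, had 78.2 and 28.7 FPKM, Tgm1, the keratinocyte transglutaminase, 21.4 and 9.39 FPKM and Sprr2h 11.51 and 2.03 FPKM. Of 16 cornified envelope and stress keratin genes compared, from a list written after the values were seen, 7 were lower and 3 higher, with a median of -0.72. Over all genes compared 0.599% were lower and 2.05% higher. Krt14 and Krt17 are counted among the 7 and also in the basal list. The 3 higher were the related Sprr2a2, Sprr2a3 and Sprr2f, of which Sprr2a3 had 5.19 and 35.5 FPKM. The family therefore differed in both directions. In MYC DLP, 9 of the 16 genes were at least 2-fold higher than in WT DLP, against 6.46% of all genes, and none was lower.

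Genes of the wound edge were also lower in part. Of 18 such genes, listed after their values were seen, 8 were at least 2-fold lower in MYC AP and none higher. Over all genes compared 0.599% were lower and 2.05% higher. In the list 16 of 18 were below 0 with a median of -0.86, and this evenness follows in part from the choice of genes. Fosl1, an AP-1 subunit, had 435 and 178 FPKM (2.44 times lower, 2.38 to 2.50), and Cldn1, claudin 1, 223 and 88.6 FPKM. F3, tissue factor, had 972 and 473 FPKM and Plaur, the urokinase receptor, 392 and 190 FPKM. Ovol1, an epidermal zinc finger factor, had 44.1 and 13.6 FPKM, Nrg1, neuregulin 1, 12.9 and 3.69 FPKM, Itga2 28.4 and 12.5 FPKM and Osmr, the oncostatin M receptor, 74.8 and 34.4 FPKM. WT AP was the highest of the 6 libraries for Fosl1, Cldn1, F3, Ovol1 and Osmr. Of all 74 genes lower in MYC AP, 51 had their highest value in WT AP. Immediate early genes, which tissue dissociation is known to induce, were not past 2-fold for any of 17 members (median 0.11), near the background of 2.05% and 0.599%, with Fos at 994 and 1031 FPKM. Median-of-ratios scaling turned that median to -0.05.

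Further genes among the 15 largest negative differences, small RNA genes and unnamed models again left out, were Dhrs9, a retinol dehydrogenase (28.1 and 4.78 FPKM, 5.88 times lower, 5.47 to 6.33), and Derl3, a factor of endoplasmic reticulum-associated degradation (138 and 29.3 FPKM, 4.70 times lower, 4.43 to 4.97). Derl3 was lower in MYC in each lobe, at 239 and 40.5 FPKM in DLP and 200 and 35.5 FPKM in VP. Ly6k, Nipal4, Arhgef39, Hmga1b and Xlr3a completed these 15 with Sprr2h, Ovol1, Nrg1, Aqp3, Krt17, Ivl, Cldn1 and Fosl1. The highest value in WT AP of any gene listed at 0 in MYC AP was that of 9530053A07Rik, at 4177 FPKM. It had 1456 and 202 FPKM in WT and MYC DLP. The listed 0 is not read here as absence.

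Stromal markers separated into matrix and other genes. Of 25 fibroblast and matrix genes, 8 were at least 2-fold higher in MYC AP and none lower, 23 were above 0 and the median was 0.64. Over all genes compared 2.05% were higher, 0.599% lower and 66.4% above 0. Col1a1 had 13.8 FPKM in WT AP and 60.1 FPKM in MYC AP (4.35 times, 4.02 to 4.70) and Col3a1 29.0 and 113 FPKM (3.88 times, 3.72 to 4.05), the chains of the main fibrillar collagens. Sparc, a collagen-binding matrix protein, had 132 and 312 FPKM (2.36 times, 2.28 to 2.45), and Mfap4, of elastic fibres, 16.8 and 47.3 FPKM. By contrast Dcn, decorin, had 1060 and 999 FPKM, Vim, vimentin, 164 and 168 FPKM, and Pdgfra, the receptor that marks fibroblasts, 23.5 and 28.1 FPKM (1.20 times, 1.15 to 1.24).

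A list of 27 collagen and matrix fibre genes was written after Col1a1 was seen. It counts Col1a1, Col3a1 and Sparc again, so it is no independent support. In MYC AP 20 were at least 2-fold higher, against 2.05% of all genes, and none lower. Of the 27, 26 were above 0, against 66.4% of all genes, and the median was 1.12. In DLP 3 and in VP 1 were higher, where 6.46% and 6.88% of all genes were higher. The 3 in DLP were Col1a1 (10.6 and 44.8 FPKM in WT and MYC DLP), Col3a1 (22.3 and 94.0 FPKM) and Sparc (114 and 237 FPKM), so that the leading collagen examples were higher in both lobes. Col5a3 had 2.25 and 7.86 FPKM, Eln, elastin, 6.98 and 21.0 FPKM, Fbn1, fibrillin 1, 7.06 and 17.5 FPKM, Col4a2, of basement membranes, 23.3 and 48.3 FPKM, and Loxl2, a collagen crosslinking enzyme, 4.65 and 10.4 FPKM. Col18a1 was the exception with 48.4 and 46.0 FPKM. Of the fibroblast list, the 11 genes that are also in the matrix fibre list had a median of 1.23 in AP, and the other 14 had a median of 0.33 with none past 2-fold. In VP these 2 groups had medians of -0.48 and -1.58.

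Smooth muscle genes were under the threshold for all 12 members, with a median of 0.55 and 10 above 0, a count of 0 being near the background of 2.05% higher and 0.599% lower. Acta2, smooth muscle actin, had 67.7 FPKM in WT AP and 115 FPKM in MYC AP, Myh11, smooth muscle myosin, 24.8 and 42.8 FPKM, and Actg2 11.3 and 22.3 FPKM. Endothelial markers were level, with a median of 0.13 over 12 genes and Pecam1 at 56.5 and 56.6 FPKM. Of 22 secreted WNT, BMP, FGF and IGF genes compared, 2 were higher, against 2.05% of all genes. They were Sfrp2, a secreted WNT inhibitor (16.0 and 34.5 FPKM), and Igfbp5, which binds insulin-like growth factors (56.5 and 194 FPKM, 3.43 times, 3.35 to 3.52). Wnt2 had 14.2 and 28.0 FPKM and Igf1 11.6 and 23.7 FPKM, both short of 2-fold on the scale used. In MYC DLP and MYC VP Igfbp5 was lower than in WT, at 217 and 128 FPKM and at 219 and 95.1 FPKM.

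Macrophage and lymphocyte markers did not reach the threshold between the AP libraries, which for lists of this size is near the 2.05% higher and 0.599% lower of all genes. Ptprc, the pan-leukocyte marker CD45, had 4.59 FPKM in WT AP and 4.62 FPKM in MYC AP. Of 14 macrophage and dendritic cell genes none was past 2-fold and 11 were below 0 (median -0.20), with Cd74, the class II invariant chain, at 471 and 299 FPKM and C1qa, of complement, at 45.8 and 42.2 FPKM. The same list was higher in MYC DLP for all 14 genes and in MYC VP for 9, against 6.46% and 6.88% of all genes. None of 6 T and NK cell genes compared was past 2-fold, and Cd79a, the only B cell gene compared, had 1.72 and 1.58 FPKM. The 6 mast cell and granulocyte genes compared had a median of 0.57 with none past 2-fold, the mast cell proteases Cpa3 and Mcpt4 being at 3.67 and 7.10 FPKM and at 8.26 and 14.4 FPKM.

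Interferon-stimulated genes were higher in MYC AP for 8 of 30 members, none lower, with 28 above 0 and a median of 0.69, where 2.05% of all genes were higher. Cxcl10, a chemokine induced by interferon, had 41.7 FPKM in WT AP and 135 FPKM in MYC AP (3.23 times, 2.95 to 3.55), and Irf7, the interferon regulatory factor, 9.38 and 30.5 FPKM (3.25 times, 2.82 to 3.75). Usp18, which removes ISG15 from proteins, had 0.825 and 4.92 FPKM, Oas1a 0.965 and 4.97 FPKM and Rsad2, viperin, 3.11 and 10.2 FPKM. In DLP 25 and in VP 19 of the 30 were higher, with medians of 1.70 and 1.61, against 6.46% and 6.88% of all genes.

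Mitotic genes were higher in MYC AP to an extent that depends on the scale, most of them from low levels. Mki67, which encodes Ki-67, had 0.693 FPKM in WT AP and 3.60 FPKM in MYC AP (5.19 times, 4.43 to 6.08), Top2a, topoisomerase II alpha, 0.718 and 3.61 FPKM and Ube2c, of the anaphase-promoting complex pathway, 0.216 and 6.16 FPKM. Of 29 G2/M genes compared, 8 were at least 2-fold higher in AP and none lower, all 29 were above 0 and the median was 0.90. In DLP and VP 28 and 29 genes were higher. Over all genes compared 2.05% were higher in AP, 6.46% in DLP and 6.88% in VP. The AP count depends on the 1 added to each value, since 26 of the 29 were under 1 FPKM in WT AP: as FPKM alone, a scale added after seeing the data, 27 of the 29 were at least 2-fold higher in MYC AP, and with 0.1 added the median was 1.99. In MYC DLP and MYC VP Mki67 reached 10.4 and 12.8 FPKM. Of 26 S phase genes none was past 2-fold in AP, near the 2.05% higher and 0.599% lower of all genes. Of the 26, 21 were above 0 (median 0.41). Mcm6, of the replicative helicase, had 1.90 and 4.62 FPKM and Pcna, the replication clamp, 62.1 and 61.8 FPKM.

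Growth genes classically linked to MYC stayed under the threshold in MYC AP, as did nearly all genes, of which 2.05% were higher and 0.599% lower, so the counts of 0 here are near the background. None of 25 ribosome biogenesis genes was past 2-fold, 17 were below 0 and the median was -0.24. Ncl, nucleolin, had 73.6 and 65.5 FPKM, Fbl, fibrillarin, 47.4 and 40.0 FPKM, and Npm1, nucleophosmin, 301 and 338 FPKM. Of 19 metabolic genes induced by MYC none was past 2-fold (median -0.19): Odc1, of polyamine synthesis, had 123 and 111 FPKM and Ldha, lactate dehydrogenase, 157 and 115 FPKM. None of 10 genes of the MYC and MAX network was past 2-fold, with Max at 44.4 and 46.8 FPKM. In VP the ribosome list had a median of 0.75 with 7 of 25 genes higher, against 6.88% of all genes. Myc had 226 and 1696 FPKM in WT and MYC VP.

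Secretory stress genes were lower in part. Of 23 endoplasmic reticulum chaperone genes, 2 were at least 2-fold lower in MYC AP, against 0.599% of all genes, and 21 were below 0 (median -0.20). The 2 were Creld2 (224 and 94.2 FPKM, 2.38 times lower, 2.30 to 2.47) and Sdf2l1 (73.6 and 34.4 FPKM), both induced by the unfolded protein response. Hspa5, the main chaperone BiP, had 1245 and 1241 FPKM. In DLP 8 and in VP 14 of the 23 were lower, against 3.39% and 5.95% of all genes. Of 17 amino acid stress genes, listed after their values were seen, 4 were lower in MYC AP, against 0.599% of all genes, and none higher (median -0.65). The 4 were Asns, asparagine synthetase (53.8 and 24.2 FPKM), Trib3 (11.0 and 4.02 FPKM), Sesn2 (20.4 and 8.54 FPKM) and Adm2 (3.12 and 0.768 FPKM). Nupr1, of the same response, went the other way with 98.0 and 172 FPKM.

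Cholesterol synthesis genes, also listed after their values were seen, were higher for 4 of 19 and above 0 for all 19 (median 0.42). Over all genes compared 2.05% were higher and 66.4% above 0. Hmgcs1 had 10.2 and 23.0 FPKM, Idi1 5.39 and 13.8 FPKM, Cyp51 5.42 and 12.2 FPKM and the sterol carrier Stard4 1.41 and 4.94 FPKM. Heat shock genes were above 0 for all 10, against 66.4% of all genes, and past 2-fold for none (median 0.44). Hspa1a had 1799 and 2510 FPKM. None of 15 glutathione and detoxification genes was past 2-fold (median 0.26). Both counts past 2-fold are near the 2.05% higher and 0.599% lower of all genes. Mt1, metallothionein 1, the most abundant of them, had 4662 and 2936 FPKM.

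**Figure D3:**
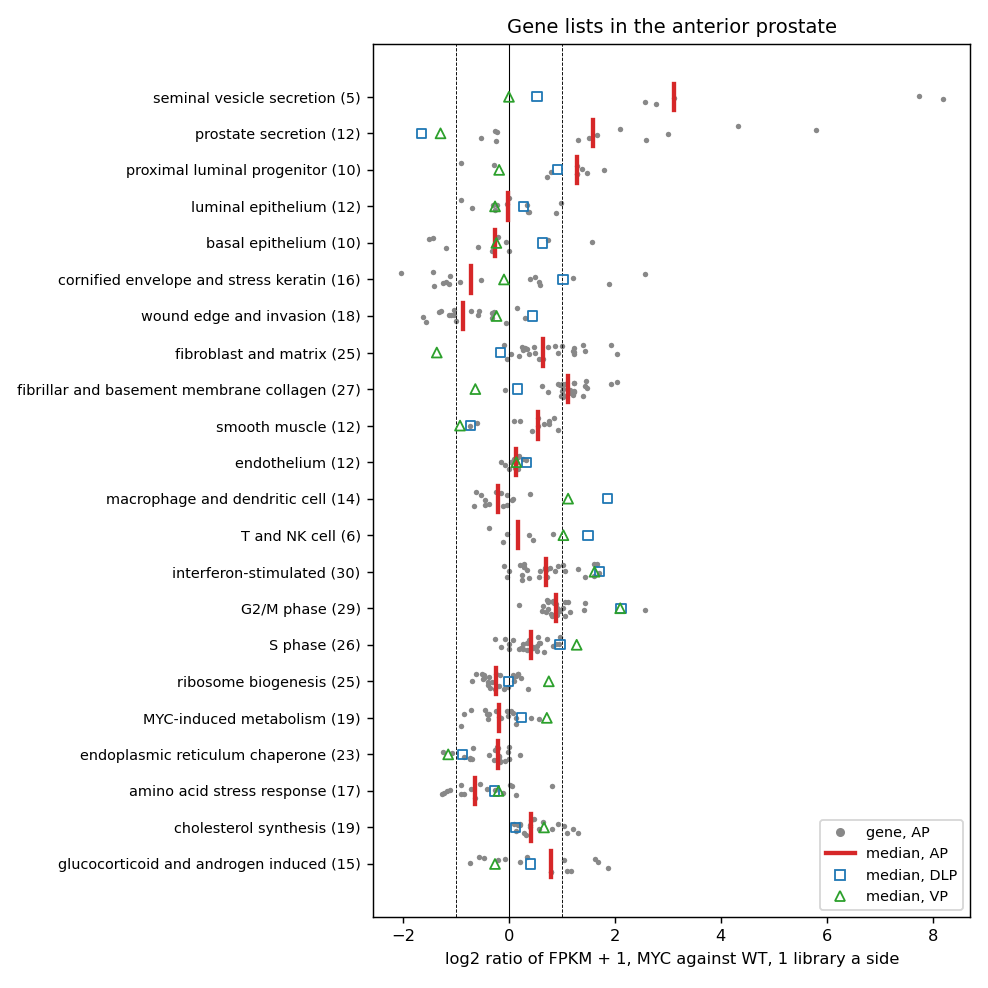
Each grey point is the log2 ratio of FPKM + 1, MYC against WT AP, of 1 gene of the list named on the y axis (number of genes compared in parentheses), the red bar is the AP median, and the open square and triangle are the medians of the same genes in DLP and VP. The seminal vesicle, prostate secretion, proximal luminal and collagen medians lie above the dashed 2-fold line in AP only, at 3.12, 1.59, 1.28 and 1.12. The macrophage and G2/M medians lie further right in DLP and VP than in AP.

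Some genes separated the genotypes in every lobe, AP included, where the Myc value did not separate the AP pair. Across the table, and here as FPKM with no 1 added and a minimum of 0.5 FPKM on the higher side, 56 genes were at least 4-fold higher in each MYC library than in any WT library and 2 were at least 4-fold lower. Of the 56, 13 average under 1 FPKM and were not compared above, and 31 are under 2-fold in AP on the FPKM + 1 scale. The 2 lower genes are neighbours on chromosome 7. Ctsc, which encodes cathepsin C (chr7:88278024-88315861 in GRCm38.p6), had 9.13, 5.67 and 2.86 FPKM in the WT AP, DLP and VP, is listed at 0 in MYC AP and had 0.00751 and 0.00636 FPKM in MYC DLP and VP. Rab38, a small GTPase gene of melanosome transport (chr7:88430273-88491572), had 1.11, 1.56 and 2.02 FPKM in the WT lobes and is listed at 0 in all 3 MYC libraries.

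The same region holds 1 of the 56 genes that were higher. Folh1 (chr7:86716525-86776053) lies on the other side of 3 vomeronasal receptor genes, Nox4, Tyr and Grm5, none of which reached 1.5 FPKM in any library. Beyond Rab38, Tmem135 had 8.01 and 10.8 FPKM in the WT and MYC AP, Fzd4 4.29 and 5.70 FPKM and Prss23, a serine protease, 27.9 and 37.1 FPKM. These 3 were thus expressed in both genotypes, while AI314278, between Fzd4 and Prss23, was at or near 0 in all 6 libraries. These genes were singled out after their values were seen, and mouse and genotype cannot be told apart.

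Of the 56 genes, 18 are in the G2/M or S phase lists, Mki67, Ccna2, Bub1b and Cdc20 among them, and others outside these lists, such as Ncapg and Spag5, also act in mitosis. Beside Folh1 and Dmbt1, the genes with other roles included Khdc1a (listed at 0 in WT AP and 6.73 FPKM in MYC AP) and Khdc1c (0 and 7.199 FPKM), whose sequences are alike, so that reads may be split between them. Calcb, a calcitonin-related peptide gene, had 0.155 and 4.16 FPKM and Ido1, which degrades tryptophan, 0.301 and 7.96 FPKM. Each of these was highest in MYC DLP, where Calcb had 60.5 and Khdc1a 37.6 FPKM.

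Set against the other lobes, the genes higher in MYC AP were shared more with DLP than with VP. Of the 254, 129 (50.8%) were also at least 2-fold higher in MYC DLP, against 6.46% of all genes, and 18 (7.09%) were lower, against 3.39%. In VP 61 (24.0%) were also higher, against 6.88% of all genes, and 39 (15.4%) were lower, against 5.95%. Seen from the other side, the shared genes were 16.1% of the 799 genes higher in DLP and 7.18% of the 850 higher in VP, where 2.05% of all genes were higher in AP. Only 51 were higher in all 3 lobes, and 79 were past 2-fold in neither DLP nor VP. Of the 74 lower genes, 17 (23.0%) were also lower in DLP and 20 (27.0%) in VP, against 3.39% and 5.95% of all genes. The other way, 8 (10.8%) were higher in DLP and 6 (8.11%) in VP, against 6.46% and 6.88% of all genes. The value of MYC AP was the highest of the 6 libraries for 79 of the 254 genes, while for 95 it was that of MYC DLP. The lobes of a genotype come from 1 mouse, so these shares are no independent support.

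**Figure D4:**
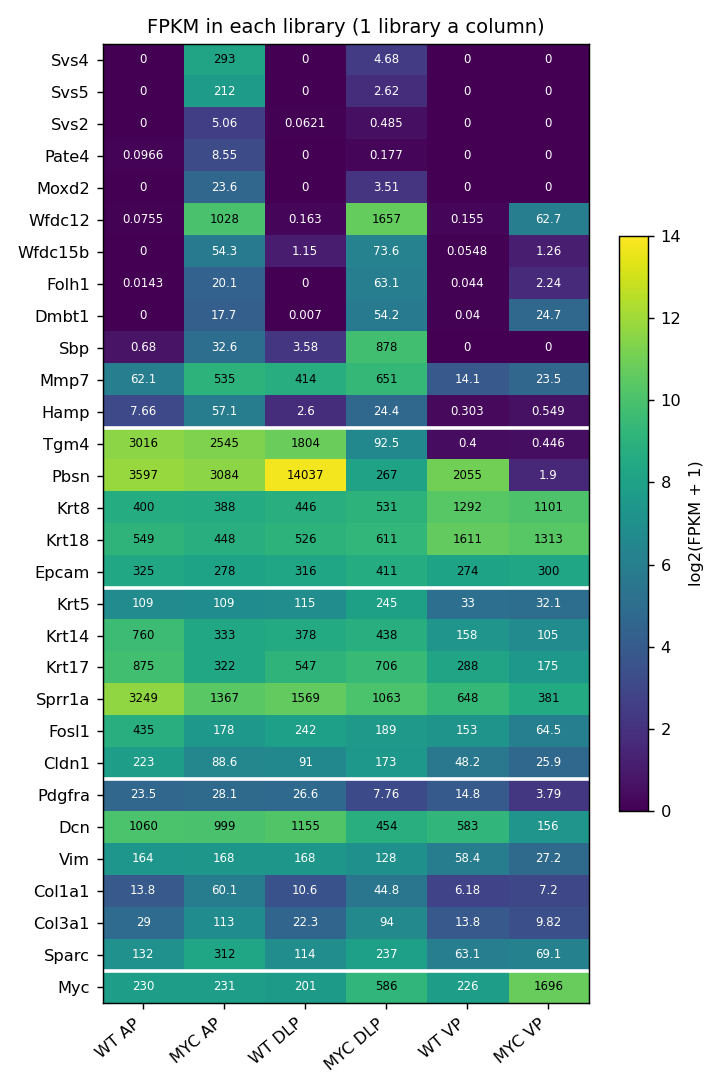
Numbers and colours give the FPKM of 30 genes in the 6 libraries, 1 library a column, on a log2(FPKM + 1) colour scale from 0 to 14, with white lines between secretory and defence genes, AP and luminal markers, basal and wound genes, stromal genes and Myc. Svs4 and Svs5 are high in MYC AP alone, Krt8, Krt18 and Epcam are similar within the AP pair, Krt17 and Sprr1a are lower in MYC AP, Col1a1 and Col3a1 are higher, and Myc is equal in the AP pair at 230 and 231 FPKM.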

How the data were processed

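The authors dissociated prostate lobes, sequenced stranded poly(A) libraries as single-end reads of 75 bases, mapped them with STAR and quantified genes with Cufflinks, on mm10 per the labels' processing notes. The deposited values are FPKM, as their sums per library and their decimals show, although the table is named as counts, so no count model was run. The annotation is not given in the sources used here. Groups came from the sample titles, 1 library each. FPKM were used as deposited, with a pseudocount of 1, a minimum mean of 1 and a 2-fold threshold. Depth was estimated from FPKM steps of single-exon genes, with a fragment length of 200 bases. Gene names came from RefSeq (GRCm38.p6), where 24344 symbols matched directly. Named genes were the 15 largest differences each way among genes averaging 5 FPKM or more in the AP pair, leaving out small RNA genes and unnamed models, list members past 2-fold, the 3 highest of each list, and a fixed set of markers; others are said to be chosen after their values were seen. Some genes that the rule named are not reported here. The genes and lists were chosen with earlier results of these data known. Computations were tested on simulated data and run in Python 3.11.15 with pandas 2.3.3 and scipy 1.17.1. Alternatives were other scalings, pseudocounts, filters and thresholds.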

Additional observations from a re-analysis of the deposited data

Results flagged for a closer look

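Lists of at least 5 genes compared whose medians went opposite ways in AP and another lobe, each by 0.5 or more on the log2 scale, are given as differences of medians. Lists written after values were seen are left out. The differences were not tested, since each lobe and genotype has 1 library. Prostate secretion was 3.23 higher in AP than in DLP and 2.88 higher than in VP on the log2 scale. Fibroblast and matrix genes were 1.999 higher in AP than in VP. Smooth muscle genes were 1.28 higher in AP than in DLP and 1.47 higher than in VP. A further list that met the rule, 8 genes labelled androgen-dependent after the paper, is given as medians only. Its AP median was 0.92, while the DLP median was -1.46 and the VP median -2.85. It shares Pbsn, Msmb, Sbp, Defb50 and Spink1 with the prostate secretion list, so it is no independent support.

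Some genes outside the comparison, because their mean over the 6 libraries is under 1 FPKM, were at 0.1 FPKM or less in each WT library and above 1 FPKM in MYC AP. Those of the seminal vesicle were Svs2 (5.06 FPKM), Svs6 (2.33), Svs3b (1.94) and Svs3a (1.39). The Paneth cell defensin genes Defa2, Defa20, Defa32 and Defa33, which are near-identical, had 1.23, 1.23, 1.22 and 1.22 FPKM in MYC AP, against at most 0.0595 FPKM in MYC DLP, and the split of reads among them is uncertain. Neb, which encodes the muscle protein nebulin, had 2.50 FPKM in MYC AP and 2.60 FPKM in MYC DLP, while the skeletal myosin genes Myh1, Myh2 and Myh4 were at or under 0.00848 FPKM in MYC AP. Hist1h4m had 2.05, Olah 1.91, Upk3a 1.60, Cyp2c70 1.59 and Grik1 1.56 FPKM.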

How the results depend on the processing

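With 254 genes higher and 74 lower in MYC AP, the counts were 67 and 15 with a 4-fold threshold, 117 and 42 with a minimum mean of 10 FPKM and 523 and 114 with a pseudocount of 0.1. The number lower was 134 with median-of-ratios size factors and 125 when ratios were centred on the median of all genes, an alternative added after seeing the data. Leaving out genes higher in a DLP library than in MYC AP, and the seminal vesicle list, also added after seeing the data, left 85 higher. The other 18 of 27 alternative counts stayed within 1.5 times. The seminal vesicle median of 3.12 was 2.78 with the mean of 1 FPKM taken over the AP pair, 7.97 with a minimum mean of 10, 2.57 with no filter, 5.90 with a pseudocount of 0.1 and 2.85 without genes listed at 0.
Directions near 0 turned with the scaling. Median-of-ratios size factors gave medians of -0.0303 for the MYC and MAX network, -0.0186 for endothelium and -0.0456 for immediate early genes, and log2 ratios of -0.0456 for Egr1 and -0.0443 for Zfp36. Centring gave -0.0172 for the MYC and MAX network, -0.0182 for immediate early genes, -0.0182 for Egr1, -0.0168 for Zfp36 and -0.0246 for Akr1b7. A minimum mean of 10 FPKM turned the T and NK cell median to -0.11. The cause was not tested. No paired analysis was possible because each group has 1 library. WT AP has 25.5 M reads against 50.03 M in MYC AP, which limits genes under 1 FPKM there.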
